A study of Mus musculus with 32 samples.

Results

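The array used here carried 46 spots whose titles name a transcription factor or a protein of a transcription factor class, out of 4696 gene spots. A spot was taken when its title held the words transcription factor, zinc finger, homeo box, homeobox, forkhead or runt related, and left out when it was an expressed sequence tag or a kinase. No measured value entered that choice. The tissue was mouse prefrontal cortex. Withdrawal Seizure-Prone mice (WSP) were selectively bred for strong seizures when ethanol is withdrawn, and Withdrawal Seizure-Resistant mice (WSR) for weak ones, with 2 separately bred lines of each. Ethanol mice (EtOH) were injected with ethanol (1.5 g/kg, with a higher dose for WSP mice of the second breeding line) and then breathed ethanol vapor for 72 h, while control mice (Air) breathed air. Pyrazole, which blocks alcohol dehydrogenase, was given to EtOH and Air mice alike (68.1 mg/kg). Brains were collected after 21 days of abstinence, and RNA of 2 adult mice was pooled per array. The 8 groups were male WSP EtOH, male WSP Air, male WSR EtOH, male WSR Air, female WSP EtOH, female WSP Air, female WSR EtOH and female WSR Air, with 4 arrays each and 2 pools from each breeding line. Pools of the same breeding line share their ancestry, so p-values measure the spread between pools, not between independently selected populations.

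Transcription factors bind short DNA motifs and recruit or block the machinery that transcribes nearby genes. Homeobox, forkhead and runt related proteins each carry a DNA-binding fold of that name, and many of them set regional or cell identity during development. Zinc finger proteins form a mixed class, in which most bind DNA and some bind RNA or carry out protein modification. General factors such as TFIIH act at most genes transcribed by RNA polymerase II. In adult cortex, messengers of many transcription factors are known to be scarce, and factors of the activity-induced kind are known to change within hours of a stimulus.

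The values were single-channel spot intensities with 1 background value per array, between 6.96 and 30.3 intensity units. A spot counts as detected here when its signal was at least 2 times background. The arrays differed in how much of the array was detected: 518 to 604 gene spots on male WSP arrays, 1682 to 2040 on male WSR arrays, 588 to 1428 on female WSP arrays and 783 to 1095 on female WSR arrays. Male WSR arrays also resembled one another more closely in the order of their spots. Their median rank correlation over the gene spots was 0.92 among themselves, against medians of 0.65 to 0.73 within and between all other sets. Their medians against the other sets were 0.67 to 0.70, inside that same range. Brightness of the whole array, sex and line moved together, and every difference between male WSP and male WSR arrays below rests on arrays that stand apart in brightness. The part of array brightness in those differences was not tested. With 4 arrays per group, precision is limited by their number.

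The 46 spots comprised 13 homeobox genes, 2 forkhead genes, 1 runt related gene, 13 zinc finger genes and 17 other spots titled as transcription factors. A current gene symbol could be matched through RefSeq to 40 of the 46 titles, and the other 6 keep their title. For 7 spots the clone accession is also listed by RefSeq, and in 7 of these 7 it belongs to the gene in the title. Several titles cover proteins that are not DNA-binding regulators in the strict sense. Trim25, listed under an older zinc finger title, is a ubiquitin ligase of antiviral signalling, Zfp36 binds messenger RNA, Mtf2 is a partner of the Polycomb repressive complex, and Gtf2h2 encodes the p44 subunit of the general factor TFIIH.

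Of the 46 spots, 14 (30.4%) were detected on at least 4 of the 32 arrays, against 44.4% of all gene spots and 39% of the 1160 gene spots with a gene title. Another 10 were detected on 1 to 3 arrays, and 22 were detected on no array, where the highest ratio of signal to background reached was 1.82. The median spot of the set stood at percentile 34.1 of array brightness, averaged over arrays, against percentile 43.3 for all gene spots. By class, the share with 4 arrays or more was 2 of 13 homeobox spots (Hoxb5 and Hhex), 2 of 2 forkhead spots (among them Foxd1), the 1 runt related spot (Runx2), 5 of 13 zinc finger spots (Maz, Trim25, Zfp62, Zbtb17 and Tshz1), and 4 of 17 others (Tcf3, Gtf2h2, Spic and Mtf2). Just outside the limit lay Zfp57, a keeper of imprinted methylation, on 3 arrays. Hoxb5, Trim25 and Zbtb17 were detected on 8 arrays each. The undetected spots included the posterior and body-plan genes Hoxa5, Hoxd10, Cdx2 and Cdx4. They also included genes with known roles in brain or other tissues, such as Dlx5 of forebrain interneurons, Zeb1, Nfat5 of the osmotic stress response, and Ubtf of ribosomal RNA transcription.

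**Figure D1:**
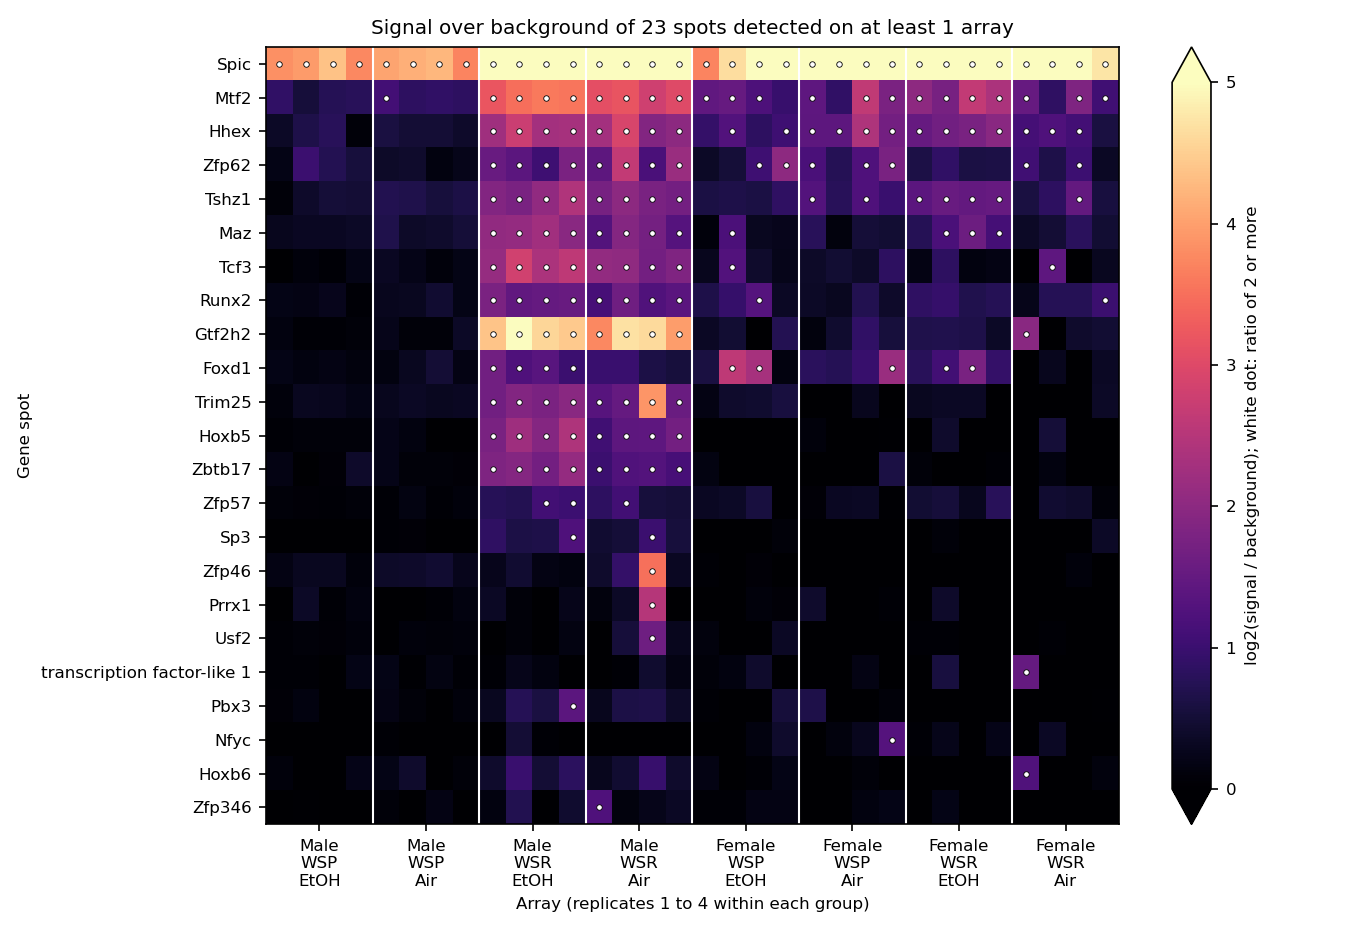
Each cell shows the log2 ratio of signal to background for 1 of 23 spots detected on at least 1 array (down the page) on 1 of 32 arrays (across, 4 per group), and a white dot marks a ratio of at least 2. Spic is dotted on 32 arrays, and most other dots lie in the 8 male WSR columns.

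How many of the 46 spots were detected followed the male lines. Male WSP EtOH arrays had 1 detected spot each and male WSP Air arrays had 2, 1, 1 and 1. Male WSR EtOH arrays had 14, 14, 15 and 17, and male WSR Air arrays had 13, 14, 17 and 13. No male WSP array came near a male WSR array, and the ethanol and air arrays overlapped within each line. Female WSP EtOH arrays had 2, 6, 5 and 3 and female WSP Air arrays had 5, 2, 5 and 6. Female WSR EtOH arrays had 4, 6, 6 and 5 and female WSR Air arrays had 7, 3, 5 and 3. Female groups thus overlapped in every pairing.

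In males the mean number detected was 1.12 ± 0.354 on WSP arrays and 14.6 ± 1.6 on WSR arrays (SD, n = 8 each), a difference of -13.5 with an exact permutation p of 0.00016 (two-sided, the smallest that 8 arrays against 8 allow) and 0.00093 after adjustment over 6 comparisons. In females it was 4.25 ± 1.67 on WSP arrays and 4.88 ± 1.46 on WSR arrays, and that difference had an exact permutation p of 0.53. The 4 ethanol comparisons of this number gave exact permutation p-values of 1 (male WSP), 0.6 (male WSR), 0.94 (female WSP) and 0.66 (female WSR), where 4 arrays against 4 allow no less than 0.029. Of the 46 spots, a mean of 2.45% were detected on male WSP arrays and 31.8% on male WSR arrays. Of all gene spots, 11.8% were detected on male WSP arrays and 40% on male WSR arrays, so the male sets were again the extremes, with both female sets between them. In pooled tissue RNA, fewer cells of a type and less RNA per cell cannot be told apart, and neither can be told apart from less labelled material on an array.

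**Figure D2:**
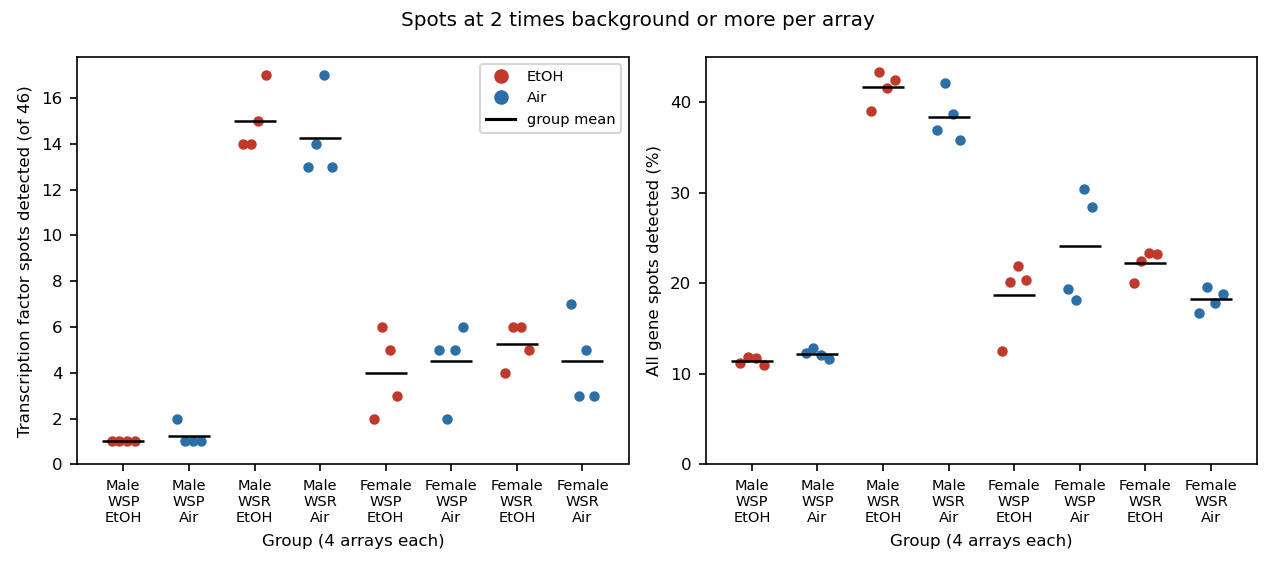
Points are arrays, with the number of the 46 spots detected at the left and the percent of all 4696 gene spots detected at the right, for 8 groups of 4 arrays; lines mark group means. Male WSP arrays hold 1 or 2 detected spots of the set, male WSR arrays 13 to 17, and female arrays 2 to 7.

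Spic and Gtf2h2 carry the clearest patterns of the set, and their promoters (250 bases before the transcription start, from RefSeq on GRCm38.p6) are given for that reason. Capitals mark a GC box (GGGCGG on either strand), the site type known for Sp family factors.

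Gtf2h2, chr13:100492395-100492644, minus strand: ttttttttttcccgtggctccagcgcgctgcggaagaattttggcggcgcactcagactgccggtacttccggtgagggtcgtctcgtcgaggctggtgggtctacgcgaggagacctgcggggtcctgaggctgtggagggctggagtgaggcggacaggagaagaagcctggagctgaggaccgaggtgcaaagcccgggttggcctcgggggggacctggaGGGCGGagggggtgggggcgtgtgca

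Spic, chr10:88683024-88683273, minus strand: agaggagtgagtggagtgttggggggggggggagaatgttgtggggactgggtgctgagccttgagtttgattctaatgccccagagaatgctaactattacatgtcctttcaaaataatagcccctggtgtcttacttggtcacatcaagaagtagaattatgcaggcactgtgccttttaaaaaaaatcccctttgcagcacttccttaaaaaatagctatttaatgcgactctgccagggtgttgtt

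The Gtf2h2 promoter was 66% G or C and held 1 GC box. The Spic promoter was 44.8% G or C and held no GC box, CCAAT box (CCAAT or ATTGG) or CACGTG motif. Of 32851 mouse promoters of this length, 32.7% held a GC box, 33.8% a CCAAT box and 6.02% a CACGTG, and their median G or C content was 52.4%. Promoters were found for 11 of the 14 genes with detection on at least 4 arrays, with 44.8% to 88% G or C. Of these 11 genes, 8 held a GC box, 4 a CCAAT box and 1 (Trim25) a CACGTG in at least 1 listed promoter. These are matches of letters, and nothing was measured about binding.

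Spic, an Ets family factor known from macrophages that recycle iron, was the brightest spot of the set and the only one detected on all 32 arrays, at percentile 97.3 of array brightness on average. Its signal was 14.3, 15.6, 20.7 and 13.6 times background on male WSP EtOH arrays and 16.5, 17.9, 19 and 13.1 times on male WSP Air arrays. On male WSR EtOH arrays it was 164, 157, 161 and 130 times background, and on male WSR Air arrays 131, 145, 110 and 149 times. The male lines did not overlap in this ratio, although the rank of Spic within the array was close, with median percentiles of 97.1 on male WSP and 98.5 on male WSR arrays. On female arrays the ratio was 13.1, 25.2, 66.2 and 56 for WSP EtOH, 51.9, 31.6, 99.8 and 90.6 for WSP Air, 52.3, 82.5, 91.2 and 57.9 for WSR EtOH, and 32.7, 39.5, 46.3 and 26.5 for WSR Air. All 4 female WSR EtOH values lay above all 4 female WSR Air values, as held for 40.4% of the 2084 spots with detection on at least 4 arrays. After quantile normalization Spic differed by 0.08 ± 0.14 (SE) there, with an adjusted p of 0.86 from limma. The clone on a spot can also catch messengers of similar sequence, and this was not tested for Spic.

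Gtf2h2, the TFIIH subunit, was nearly restricted to male WSR arrays. Male WSP EtOH arrays read 1.10, 1.04, 1.03 and 1.06 times background and male WSP Air arrays 1.19, 1.07, 1.07 and 1.29, so no male WSP array reached the limit. Male WSR EtOH arrays read 21, 37.7, 23.8 and 21.8 times background and male WSR Air arrays 13.6, 25.9, 24.5 and 15.8. Of 16 female arrays, 1 passed the limit, female WSR Air replicate 1, at 3.89. The other female arrays lay between 0.74 and 1.84. Its median percentile within the array was 86.2 on male WSR arrays. The corresponding 55.1 on male WSP arrays is a rank among spots near background and gives no exact change of rank.

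Mtf2, the Polycomb partner, was detected on 22 arrays. It read 1.86, 1.45, 1.69 and 1.74 times background on male WSP EtOH arrays and 2.14, 1.80, 1.84 and 1.80 on male WSP Air arrays, where 1 of 8 passed the limit. Male WSR EtOH arrays read 9.18, 11.2, 12.2 and 11.9 and male WSR Air arrays 8.57, 8.98, 6.99 and 8.12. Its median percentile within the array was 87.4 on male WSP arrays, near the detection limit, and 82.3 on male WSR arrays. Hhex, a homeobox factor known from blood and liver development, was detected on 21 arrays. Male WSP arrays lay at 1.07 to 1.73 times background and male WSR arrays at 3.71 to 7.56, with no overlap, while female WSP arrays (1.79 to 5.3) and female WSR arrays (1.51 to 3.91) overlapped.

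Among zinc finger genes, Zfp62 and Tshz1 were detected on 15 arrays each and Maz, which binds GC-rich promoters, on 12. Tshz1 is a mouse teashirt gene, of a family first known from Drosophila. Maz lay at 1.21 to 1.59 times background on male WSP arrays and 2.46 to 4.79 on male WSR arrays. Female WSR EtOH arrays gave 3 of 4 above the limit (1.68, 2.27, 3.06 and 2.18), against 0 of 4 female WSR Air arrays (lowest 1.29, median 1.41), of which the highest lay within the EtOH range. For Tshz1 the same 2 female groups had 4 of 4 detected (2.65, 2.95, 2.82 and 2.88) and 1 of 4 detected (1.51, 1.79, 2.81 and 1.49), so 1 female WSR Air array lay within the EtOH range. A full separation with EtOH higher, which neither gene showed, held for 40.4% of the 2084 spots in female WSR. After quantile normalization neither gene passed there, with adjusted p-values of 0.46 (Maz) and 0.6 (Tshz1) from limma. Zfp62 was above the limit on 8 of 8 male WSR arrays and on 5 of 8 female WSP arrays, against 0 of 8 male WSP arrays and 2 of 8 female WSR arrays.

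Tcf3, the E2A factor that pairs with tissue-specific helix-loop-helix proteins, was detected on 8 male WSR arrays and on 2 female arrays. Male WSP arrays lay at 1 to 1.25 times background, and male WSR arrays at 3.22 to 7.08. Runx2, the runt related factor of bone formation, was likewise detected on 8 male WSR arrays and 2 female arrays, with a highest ratio of 3.47. Foxd1, a forkhead factor of kidney stroma and retina, was the member whose detection split by treatment within male WSR. It read 3.20, 2.37, 2.56 and 2.01 on male WSR EtOH arrays and 1.98, 1.97, 1.56 and 1.47 on male WSR Air arrays. In female WSR it read 1.74, 2.12, 3.40 and 1.91 on EtOH arrays and 0.96, 1.21, 0.93 and 1.26 on Air arrays. The EtOH and Air arrays did not overlap in either set, where the same separation with EtOH higher held for 8.3% of all spots tested in male WSR and 40.4% in female WSR.

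Trim25, Hoxb5 and Zbtb17 passed the limit on male WSR arrays alone, a pattern held by 22.5% of the 2084 gene spots with detection on at least 4 arrays. Hoxb5, a homeobox gene of hindbrain and trunk identity, read 2.09 to 5.31 on male WSR arrays and at most 1.44 elsewhere. Zbtb17 (titled zinc finger protein 100), the Miz-1 partner of Myc, read 2.02 to 4.27 on male WSR arrays and at most 1.54 elsewhere.

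**Figure D3:**
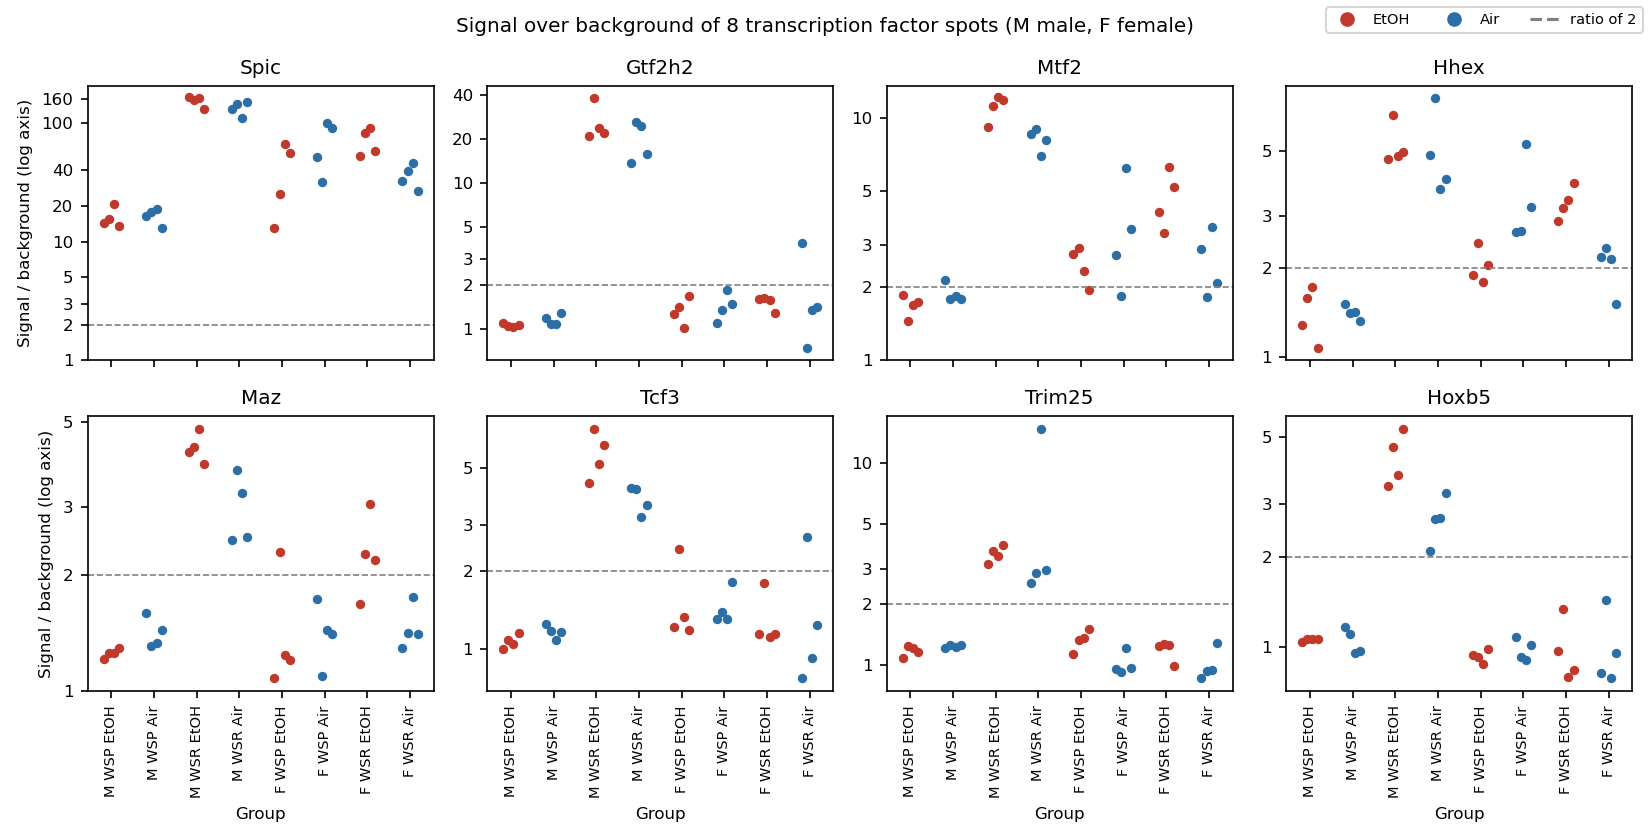
Signal over background on a log axis for 8 spots, 1 point per array, with a dashed line at the detection limit of 2. Spic lies above the line on 32 arrays, Gtf2h2 reaches 13.6 to 37.7 on male WSR arrays, and Trim25 and Hoxb5 pass the line on male WSR arrays only.

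Single arrays accounted for several detections. On male WSR Air replicate 3, Trim25 read 14.8 against 2.54 to 2.96 on the other 3 arrays of its group. The same array was the only one to detect Zfp46 (11.3 times background), Prrx1 (5.64), a homeobox factor of limb and head mesenchyme, and Usf2 (3.11), an E box factor. That array held 55 gene spots detected nowhere else. Female WSR Air replicate 1 was the only array to detect Hoxb6 (2.39) and transcription factor-like 1 (2.85), and the only female array to detect Gtf2h2. In all, 8 of the 46 spots and 508 gene spots were detected on exactly 1 array.

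Ethanol and air were compared within each sex and line on log2 intensities, after background correction with an offset of 50 and quantile normalization, for the 14 spots detected on at least 4 arrays. The offset compresses differences of dim spots. By limma's moderated test with Benjamini-Hochberg adjustment over 2084 spots, 0 of the 14 passed in males of WSP (0.048% of all spots tested passed), males of WSR (0%), females of WSP (0.384%) or females of WSR (0.048%). None of the 14 passed for the mean of the 4 differences (0%) or for the difference of the ethanol effect between WSP and WSR (0.24%). Unadjusted p-values lay under 0.05 for 1, 0, 3, 0, 0 and 1 of the 14 in these 6 comparisons, against 176, 64, 260, 270, 98 and 262 of 2084 spots. The median difference of the 14 was -0.07 in male WSP, 0.01 in male WSR, 0.06 in female WSP and -0.0045 in female WSR, on the log2 scale. For all spots it was -0.0031, 0.0056, -0.0049 and 0.05.

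In the normalized values all 4 EtOH arrays lay on one side of all 4 Air arrays for 1 of the 14 in female WSP (Trim25), against 3.74% of all spots, and for 1 in female WSR (Foxd1), against 5.37%. This held for 0 of the 14 in male WSP, against 5.57%.

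The member with the smallest ethanol p was Runx2 in female WSP, at 6.23 ± 0.25 log2 units with EtOH and 5.89 ± 0.03 with Air (SD, n = 4 each). The difference was 0.34 ± 0.093 (SE), the adjusted p from limma was 0.11, and 4 of 4 EtOH arrays lay above the Air mean. In the ratio to background this is 1.58, 1.94, 2.49 and 1.27 with EtOH against 1.29, 1.23, 1.65 and 1.32 with Air, which overlap and of which 1 is at the detection limit or above. Foxd1 differed by 0.44 ± 0.19 (adjusted p 0.31) and Trim25 by 0.18 ± 0.088 (adjusted p 0.38) in the same females. Without female WSP EtOH replicate 4, the Runx2 difference was 0.45 with an adjusted p of 0.0037 and the Foxd1 difference 0.72 with an adjusted p of 0.017, so that array decided both.

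In male WSP, Zfp62 averaged 6.63 ± 0.43 with EtOH and 6.04 ± 0.12 with Air, a difference of 0.59 ± 0.17 with an adjusted p of 0.2 from limma. None of these 8 arrays reached 2 times background for Zfp62, with 1.16, 2.00, 1.66 and 1.47 against 1.31, 1.33, 1.10 and 1.18 (the value printed as 2.00 lay just below the limit). Without male WSP EtOH replicate 1 the adjusted p was 0.014. The ethanol difference of Zfp62 in WSP minus that in WSR was 0.5 ± 0.17, with an adjusted p of 0.23. In female WSR, the 3 members with the smallest p among those higher with EtOH were Foxd1 (0.38 ± 0.19), Maz (0.19 ± 0.11) and Mtf2 (0.3 ± 0.19), with adjusted p-values of 0.4, 0.46 and 0.49. Gtf2h2 differed by -0.29 ± 0.19 there, a mean that includes the single Air array at 3.89 times background.

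**Figure D4:**
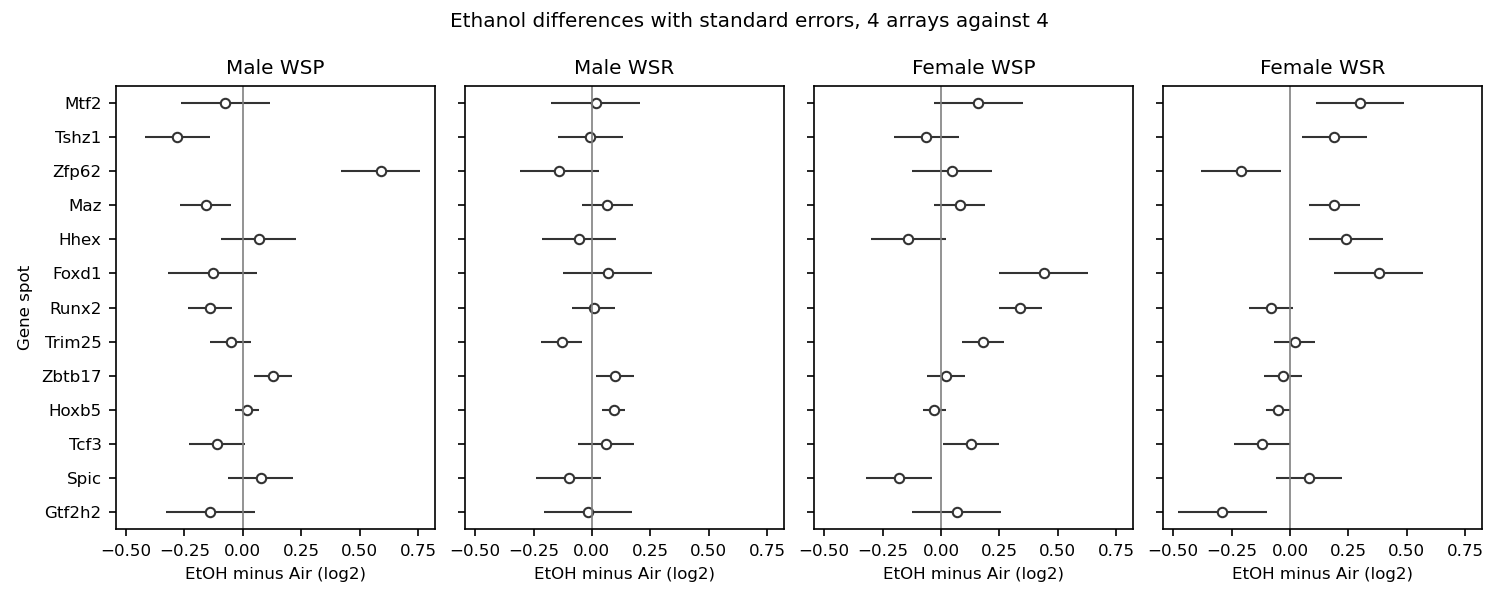
Points are log2 differences, EtOH minus Air, of 13 of the 14 spots in 4 sets of 4 arrays against 4, with bars of 1 standard error; open points did not pass an adjusted p of 0.05. No point is filled, and the farthest from 0 are Zfp62 in male WSP at 0.59 and Foxd1 in female WSP at 0.44.

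Before normalization, the ratio to background separated EtOH from Air for some members in male WSR. Maz, Foxd1, Hoxb5, Zbtb17, Tcf3 and Mtf2 had all 4 EtOH arrays above all 4 Air arrays, 6 of 14, against 8.3% of the 2084 spots. Tcf3 read 4.36, 7.08, 5.18 and 6.11 with EtOH against 4.20, 4.14, 3.22 and 3.59 with Air, and Zbtb17 read 3.53, 3.74, 3.23 and 4.27 against 2.02, 2.41, 2.45 and 2.21. After quantile normalization Tcf3 differed by 0.06 ± 0.12 and Zbtb17 by 0.1 ± 0.081, each with an adjusted p of 1 from limma, and 1 of the 14, Zbtb17, still had groups that did not overlap (3.79% of all spots). With each array scaled to its median instead, Hoxb5, Zbtb17 and Tcf3 were called higher with EtOH in male WSR at adjusted p-values of 0.0047, 0.00078 and 0.029, where 6.86% of all spots were called. In female WSR, Foxd1, Hhex and Spic were separated in the ratio to background, 3 of 14, against 40.4% of all spots. The separation went the other way, with EtOH lower, for Hhex in female WSP, 1 of 14, against 5.81% of all spots. In male WSP it did so for Maz and Tshz1, 2 of 14, against 6.09%. The male WSP ratios of Maz and Tshz1 all lay under 2 times background. The number called in male WSR thus differed between scalings. Gene spots detected numbered 1834 to 2040 on male WSR EtOH arrays and 1682 to 1979 on male WSR Air arrays, ranges that overlap, and the part of array brightness in the separation was not tested.

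The lines were compared over both treatments, WSP minus WSR. In males, 9 of the 14 passed, 4 higher and 5 lower in WSP, against 58.3% of all spots (24.4% higher and 34% lower). This count is not free of the filter. Of the 14, 7 reached the required 4 arrays only with the help of male WSR arrays, as did 41.1% of all spots tested. That selection favours lower values in male WSP. These 7 include Gtf2h2, Tcf3, Runx2, Hoxb5, Trim25 and Zbtb17, whose male line differences are given as a description without a test. After normalization Runx2 (0.05), Trim25 (-0.02) and Zbtb17 (-0.05) differed little between the male lines. The other 7, Spic, Mtf2, Hhex, Zfp62, Tshz1, Maz and Foxd1, were detected on at least 4 arrays outside male WSR. Of these 7, 5 passed, 4 higher and 1 lower in WSP, against 56.8% of the 1227 spots kept on the same terms.

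Spic was the 1 lower in male WSP, at 9.29 ± 0.09 log2 units in WSP and 9.66 ± 0.14 in WSR (SD, n = 8 each), a difference of -0.36 ± 0.099 with an adjusted p of 0.0022 from limma. Its call was kept without any 1 of 16 male arrays. Gtf2h2 averaged 5.89 ± 0.15 in WSP and 6.79 ± 0.13 in WSR, a difference of -0.9 ± 0.13. Hoxb5 differed by -0.19 ± 0.035 and Tcf3 by -0.21 ± 0.088. All 8 WSP arrays lay below all 8 WSR arrays for Gtf2h2 and above them for Maz, 2 of 14 without overlap, against 32.4% of all spots.

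The members higher in male WSP after quantile normalization were Mtf2, Tshz1, Zfp62 and Maz. Mtf2 averaged 6.86 ± 0.18 log2 units in WSP and 6.38 ± 0.07 in WSR, a difference of 0.48 ± 0.13 with an adjusted p of 0.0023 from limma. Tshz1 differed by 0.38 ± 0.1 (adjusted p 0.0017), Zfp62 by 0.33 ± 0.12 (0.021) and Maz by 0.24 ± 0.078 (0.01). These 3 were detected on 0 of 8 male WSP arrays and on 8 of 8 male WSR arrays, so their male WSP values are only bounds. The call of Zfp62 was lost without male WSP EtOH replicate 2 (adjusted p 0.064), and that of no other of the 4 was lost without 1 array. Without a replicate number of every group, limma lost the call of Maz (replicate 4, adjusted p 0.13). It also lost that of Zfp62 (replicate 2, adjusted p 0.12, or replicate 3, adjusted p 0.13). These directions belong to the scaling. Under cyclic loess Mtf2 (0.81) and Tshz1 (0.26) were called higher in male WSP, and Zfp62 and Maz were not called. With each array scaled to its median, the median of all spots moved by -0.69 in males, all 4 turned lower in WSP (Mtf2 -1.15, Tshz1 -0.42, Maz -0.41, Zfp62 -0.30), and 13 of the 14 passed, all of them lower, against 86.6% of all spots. The scores of the authors' table put all 4 lower in WSP too, and put Spic higher in WSP by 1.38 score units. Gtf2h2, Hoxb5 and Tcf3 had negative values in males under quantile normalization, median scaling and cyclic loess, a direction that the filter favours, and they were not among the 7 members with a score on every array.

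For 12 of the 14 the male WSP value is only a bound, since no male WSP array reached 2 times background, and no fold between the lines can be given for them. The lowest signal among detected spots on male WSP arrays averaged 7.05 log2 units after normalization, above the male WSR mean of every one of the 12. Only Spic and Mtf2 were detected on both sides, Mtf2 on 1 of 8 male WSP arrays. With breeding line 1 of each selected line alone 3 of the 14 passed in males, against 45.3% of all spots, and with breeding line 2 alone 7 passed, against 49.5%.

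In females, 0 of the 14 passed between the lines, against 12.1% of all spots. Foxd1 averaged 6.43 ± 0.55 in WSP and 6.06 ± 0.25 in WSR, a difference of 0.37 ± 0.14 with an adjusted p of 0.069. Maz averaged 5.95 ± 0.20 in WSP and 6.17 ± 0.16 in WSR, a difference of -0.22 ± 0.078 with an adjusted p of 0.063, and 7 of 8 WSP arrays lay below the WSR mean. Tshz1 differed by -0.21 ± 0.1 (adjusted p 0.2). Without female WSP EtOH replicate 2 the adjusted p of Maz was 0.0049, and without female WSP Air replicate 1 it was 0.03. Without female WSP EtOH replicate 4, replicate 1 or female WSR EtOH replicate 3 that of Foxd1 was 0.0015, 0.04 or 0.045. Gtf2h2 differed by -0.2 ± 0.13, and no female WSP array detected it.

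**Figure D5:**
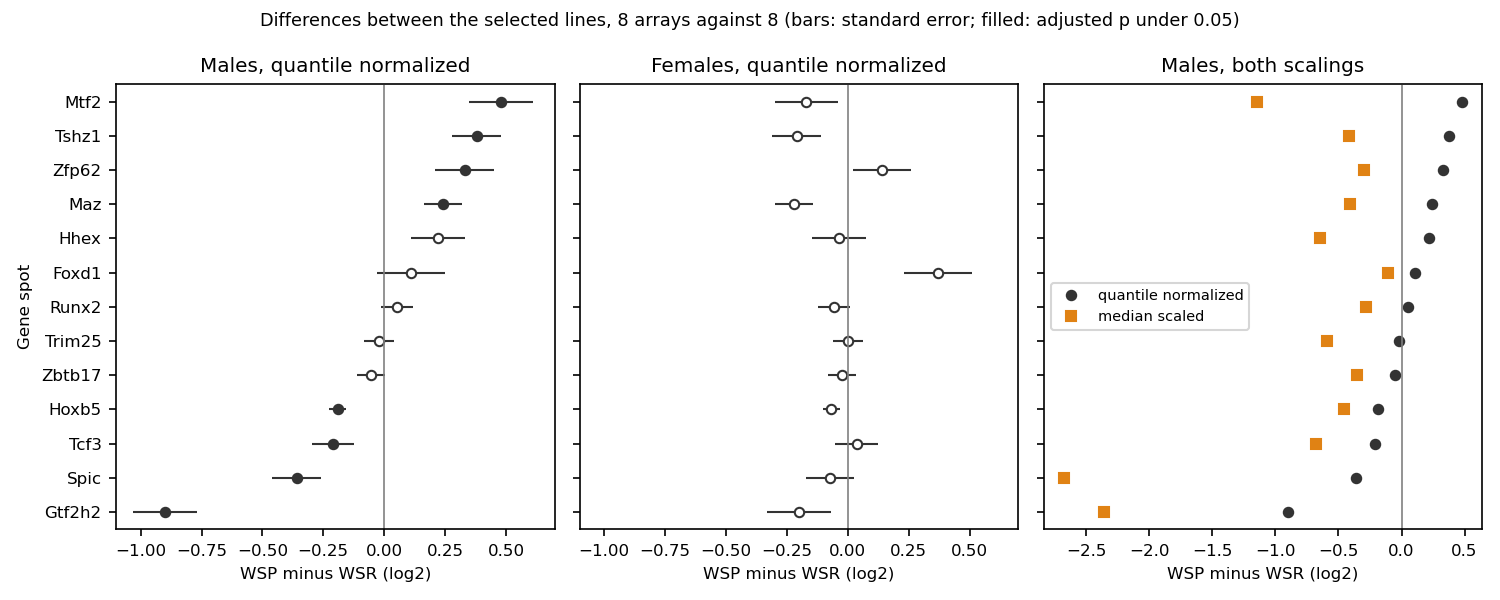
Log2 differences, WSP minus WSR, of 13 of the 14 spots with bars of 1 standard error in males (left) and females (centre), 8 arrays against 8, and at the right the male values under 2 scalings. Filled points passed an adjusted p of 0.05, which for Gtf2h2, Hoxb5 and Tcf3 in males is no free test because of the filter. Under median scaling the 13 male differences drawn lie below 0, with Spic at -2.68 and Gtf2h2 at -2.36.

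Over both sexes, 6 of the 14 passed between the lines, 2 higher and 4 lower in WSP, against 54.4% of all spots (22.4% higher and 32% lower). Of the 7 that needed no male WSR array, 3 passed, against 52.8% of the spots kept likewise. Zfp62 and Foxd1 were higher in WSP (both 0.24), and Gtf2h2 (-0.55), Spic (-0.22) and Hoxb5 (-0.13) were among those lower. Gtf2h2 and Hoxb5 reached the required 4 arrays only with the help of male WSR arrays. That favours lower values in WSP, so their calls here are no free test. The call of Foxd1 was lost without any 1 of 5 arrays: female WSP EtOH replicates 2 and 3, female WSP Air replicate 4, female WSR EtOH replicate 4 or male WSP Air replicate 3. That of Spic was lost without replicate 2 of every group (adjusted p 0.069). The call of Zfp62 was lost without replicate 2, 3 or 4 of every group, with adjusted p-values of 0.063, 0.068 and 0.17 from limma. Under median scaling 13 of the 14 passed, all of them lower in WSP, against 83.9% of all spots (1.49% higher and 82.4% lower). Zfp62 was among those 13 (-0.13), and Spic turned higher in the authors' scores (0.69).

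The line difference in males minus that in females passed for 5 of the 14, 3 positive and 2 negative, against 53.1% of all spots (20.7% positive and 32.3% negative). Of the 7 that needed no male WSR array, 3 passed, against 51.8% of the spots kept likewise. It was 0.65 ± 0.19 for Mtf2, 0.59 ± 0.14 for Tshz1 and 0.46 ± 0.11 for Maz. Each was higher in male WSP than in male WSR after quantile normalization, and Mtf2 and Tshz1 were so under cyclic loess too. Under median scaling each was lower in male WSP. After quantile normalization each had a negative difference in females that did not pass. Mtf2 was detected on 1 of 8 male WSP arrays and Tshz1 and Maz on 0 of 8, against 8 of 8 male WSR arrays for each. Under cyclic loess Mtf2 (1.05) and Tshz1 (0.43) were called with the same sign, and Maz was not called. The male minus female difference was -0.69 ± 0.19 for Gtf2h2 and -0.12 ± 0.05 for Hoxb5, both of which entered through male WSR arrays. Under median scaling 11 of the 14 passed, all negative (77.5% of all spots passed), and Mtf2, Tshz1 and Maz had the opposite sign. With breeding line 1 alone 0 of the 14 passed, against 35.3% of all spots, and the call of Hoxb5 was lost without any 1 of 21 of the 32 arrays. The call of Mtf2 was lost without replicate 3 of every group (adjusted p 0.059 from limma). That of Gtf2h2 was lost without replicate 2 of every group (adjusted p 0.058 from limma).

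Other regulators whose titles do not use the words of the rule were taken from a list of class names, 28 spots in all, of which 9 (32.1%) were detected on at least 4 arrays. The immediate early genes Jun and early growth response 1 were detected on no array. In the ethanol comparisons 0 of the 9 passed, against 0% to 0.384% of all spots. Between the male lines 2 of the 9 were higher in WSP and 4 lower, against 24.4% and 34% of all spots. Smad3, the TGF-beta signalling factor titled MAD homolog 3, was detected on 32 arrays as Spic was, with median ratios of 5.87 on male WSP and 92 on male WSR arrays, and differed by -0.5 (adjusted p 0.00017).

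Markers of other cell types were few on this array. Of 8 matching spots, 6 were detected on at least 4 arrays: glutamine synthetase (astrocytes), transthyretin (choroid plexus), 2 hemoglobin spots (blood), proteolipid protein (oligodendrocytes) and endoglin (vessels). No title matched the neuronal or microglial markers looked for, so neurons of the labelled cortex could not be checked. The summed ratio of the 8 spots to background was 32.4 to 49.4 on male WSP arrays, 205 to 358 on male WSR arrays, 33.7 to 202 on female WSP arrays and 74.5 to 178 on female WSR arrays. After normalization their summed log2 level was 55.6 to 57.8 on male WSP and 54.7 to 56.0 on male WSR arrays. Between the male lines 3 of the 6 were higher in WSP and 2 lower, against 24.4% and 34% of all spots. In the ethanol comparisons within a set 0 of the 6 passed, against 0% to 0.384% of all spots. Endoglin alone passed for the ethanol difference in WSP minus that in WSR, at 0.74 with an adjusted p of 0.04 from limma (0.24% of all spots passed). Its ethanol difference was 0.57 in male WSP and 0.57 in female WSP, neither of which passed. The part of other cell types in the differences of the 14 spots was not tested.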

How the data were processed

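Per the labels, total RNA of prefrontal cortex was copied into cDNA carrying 33P, primed with oligo-dT, and hybridised to single-channel arrays. Which software quantified the spots is not given in the sources used here. Array files as deposited hold 1 signal intensity per spot and 1 background intensity per array, with the background not subtracted from the signal. A second deposited table, made by the authors, holds scores that equal a straight line through the log2 intensity of each array to within 1.07e-06, with column medians between 7.29 and 8.55; they were used as an alternative. The table had scores on all 32 arrays for 1134 spots, 7 of them members. Of 5355 spots, 4696 are gene spots, 192 genomic DNA and 467 of unknown content. Spots were joined by their number, because 1 file lists them in another order.

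Intensities were background-corrected with normexp (offset 50), moved to log2 and quantile normalized over gene spots. The 2084 gene spots at 2 times background on at least 4 arrays entered a limma model (version 3.58.1, R 4.3.3) of 8 group means with an intensity-dependent prior variance, from which 10 contrasts were drawn. It left 24 residual degrees of freedom. Benjamini-Hochberg adjustment ran over the 2084 spots. A spot is called where its adjusted p lies below 0.05. Detected members per array were compared with exact permutation tests (scipy 1.17.1). Simulated data held 200 changed spots of 2084. Changes of 0.5 (log2) were recovered for 75.5% in the female WSP ethanol comparison and 91.5% in the male line comparison. Their mean estimates were 0.496 and 0.498, so this size holds on the fitted log2 scale. The offset compresses differences of dim spots, so a change of that size in their signal would appear smaller. In the data 58.3% of all spots passed between the male lines, a larger share than was changed in the simulation. The recovery is thus no estimate of power for the members.

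The members, the other regulators and the markers were chosen with earlier results of these data known. The text names, per ethanol comparison, called members or else those with the smallest p in each direction, and per line comparison the called members with the largest moderated t. Members named in the accounts of detection, and the values given for them, were chosen after they were seen. From the list of other regulators 4 false matches of words were dropped. Alternatives were the authors' table, cyclic loess, median scaling, no or stricter filters, uncorrected background, no intensity trend, blocks and left-out replicates; single arrays left out, single breeding lines and the count over spots detected on at least 4 arrays other than male WSR were added after seeing the data. Values of 1 member and 1 other regulator are not reported here by name, and counts over the spots include them.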

Additional observations from a re-analysis of the deposited data

Results flagged for a closer look

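In groups of 4 arrays, a single array lay far from the other 3 in 12 of 120 checks, where chance gives about 1 in 20. On the normalized log2 scale these included Maz on female WSP EtOH replicate 2 (6.40, with the others at 5.83 to 5.88), on female WSP Air replicate 1 (6.11) and on male WSP EtOH replicate 4 (6.35), and Runx2 on male WSP Air replicate 3 (6.31) and on male WSR EtOH replicate 1 (6.03). Trim25 stood apart on male WSR Air replicate 3 (6.59, with the others at 5.95 to 6.02), where its signal was 14.8 times background. Zbtb17 (5.90) stood apart on female WSP Air replicate 4, Tcf3 on female WSR EtOH replicate 2 (6.07), Tshz1 on female WSR Air replicate 3 (6.75) and Spic on male WSP EtOH replicate 3 (9.46). The number of detected members was 2 on 1 male WSP Air array and 1 on the other 3. Of these 10 spot values, 5 were above 2 times background on the array concerned (Maz on female WSP EtOH replicate 2, Runx2 on male WSR EtOH replicate 1, Trim25, Tshz1 and Spic) and 5 were below it.

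The line difference in males differed from that in females, by the test of that difference, for Mtf2 (0.65), Tshz1 (0.59), Maz (0.46), Hoxb5 (-0.12) and Gtf2h2 (-0.69). The difference in brightness between male WSP and male WSR arrays moved with them, and its part was not tested. Hoxb5 and Gtf2h2 passed the detection filter only with the help of male WSR arrays, which favours their direction.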

How the results depend on the processing

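The scaling of the arrays decided most line calls. With median scaling, calls were 13 of the 14 members over both sexes (all lower in WSP), 6 in females, 11 for the male minus female difference, 3 for ethanol in male WSR and 3 for the ethanol difference WSP minus WSR. Of all spots, 83.9%, 36.4%, 77.5%, 6.86% and 27.4% were called in these 5 comparisons. In males the same 4 members had the opposite sign (Maz -0.41, Zfp62 -0.30, Tshz1 -0.42, Mtf2 -1.15), as did Zfp62 over both sexes (-0.13) and Maz (-0.19), Tshz1 (-0.15) and Mtf2 (-0.78) in the male minus female difference. In the authors' table, with 7 members tested, calls were 1 for ethanol in female WSP (Runx2, adjusted p 0.03), 2 between female lines, 4 between male lines and 2 for the male minus female difference, against 6.44%, 17.7%, 66.2% and 59% of 1134 spots. Signs there were opposite for Spic (0.69 over both sexes, 1.38 in males, 1.39 for the male minus female difference), and in males for Maz (-0.35), Zfp62 (-0.10), Tshz1 (-0.26) and Mtf2 (-0.92), the last also in the male minus female difference (-0.53). Cyclic loess gave 2 calls for ethanol in male WSR (2.3% of all spots) and 8 for the male minus female difference (52.1%). Without background correction 1 member was called between female lines (14% of all spots). Keeping spots detected on at least 16 arrays left 3 members to test, with 1 call over both sexes, 2 in males and 1 for the male minus female difference (51.6%, 64.6% and 54.2% of 869 spots). Breeding line 1 alone gave 3 calls in males and 0 for the male minus female difference, and breeding line 2 alone gave 1 in females (45.3%, 35.3% and 5.76% of all spots). The cause of these shifts was not tested.

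Leaving out replicates or single arrays gave 0 to 2 ethanol calls in female WSP, 0 to 1 in male WSP and 0 in the other ethanol comparisons. It gave 2 to 7 line calls over both sexes, 0 to 1 in females, 7 to 11 in males and 3 to 6 for the male minus female difference. With every array kept, 54.4%, 12.1%, 58.3% and 53.1% of all spots passed in these line comparisons. The shares with arrays left out are not given here, so these ranges are no result about the members alone. Without 1 replicate number, the difference in detected members, EtOH minus Air, ranged from -2 to 0.333 in female WSP, from 0 to 2 in female WSR, from -0.333 to 0 in male WSP and from -0.333 to 1.67 in male WSR. The line difference, WSP minus WSR, ranged from -1 to -0.167 in females and from -14 to -13 in males.

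Replicate numbers pair ethanol with air arrays of the same breeding line and pool number only by label: their deviations correlated at -0.10 to 0.41, over 0.1 in 5 of 16 pairs, and 6 of 16 arrays correlated best with their own number. With the replicate block, calls stayed at 6 over both sexes, 0 in females, 9 in males, 5 for the male minus female difference and 0 for ethanol. Without the block, 54.4% of all spots passed over both sexes, 12.1% in females, 58.3% in males and 53.1% for the male minus female difference. The shares with the block are not given here, so the unchanged counts are no result about the members alone. Signals under 2 times background limit all male WSP values except those of Spic.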
